A study of Mus musculus with 9 samples.

Results

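The comparison described here sets MP against LSK cells in total RNA, gene by gene, in mouse blood-forming cells. Genes were taken from the count table if they passed a filter on low counts, and 16426 of 47480 gene names did so. All cells were primary hematopoietic cells of the C57BL/6 strain. LSK was labelled as the stem cell stage and MP as the progenitor stage, an abbreviation the labels do not spell out. Before lysis all cells spent 10 min at 37 °C in 100 ug/ml cycloheximide, which arrests ribosomes on mRNA, so every library carries this exposure. A portion of lysate was put aside for total RNA before the rest was spun through a sucrose gradient, whose fraction 7 gave the polysomal RNA. There were 2 LSK and 2 MP libraries of total RNA, beside 2 LSK and 3 MP polysomal libraries that entered the same statistical fit. The labels give no age, sex or other treatment. Nor do they tie libraries to animals, so the spread behind the p-values is that between these libraries and may be technical.

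Blood formation starts from rare stem cells that divide slowly and can give every lineage. In the marrow they lie within a fraction that lacks lineage markers and carries Sca-1 and Kit, which LSK conventionally abbreviates. Committed progenitors lose Sca-1 while keeping Kit and take up the programmes of granulocytes, monocytes, megakaryocytes or red cells. Red cell precursors build the membrane skeleton, the blood group antigens and the enzymes of heme synthesis before they fill with globin. Granulocyte precursors first make the proteases of the primary granules and only later the proteins of the secondary granules.

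The total RNA libraries held 28966960 and 30260450 counts in LSK and 31435049 and 30463969 in MP. Across all genes the 2 MP libraries were the closest pair, with a Pearson r of 0.946 on log2 CPM (counts scaled to the library size), and the 2 LSK libraries had an r of 0.886. That LSK value was close to the r of 0.896 between LSK library 1 and MP library 1, a description over genes that are not independent. Among the 4 libraries, MP library 1 and LSK library 2 stood apart in genes of other cell types. MP library 1 had 1.74% of its counts in late neutrophil genes, against 0.175% in MP library 2 and 0.214% and 0.173% in the LSK libraries. LSK library 2 had 0.768% of its counts in immunoglobulin genes, against 0.0923% in LSK library 1 and 0.0312% and 0.0163% in the MP libraries. The given markers were chosen with earlier results of these data known, so their direction is no check of the labels. The given LSK markers Ly6a, Procr and Hlf were higher in both LSK libraries, and the given MP markers Ermap and Elane were higher in both MP libraries.

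**Figure D1:**
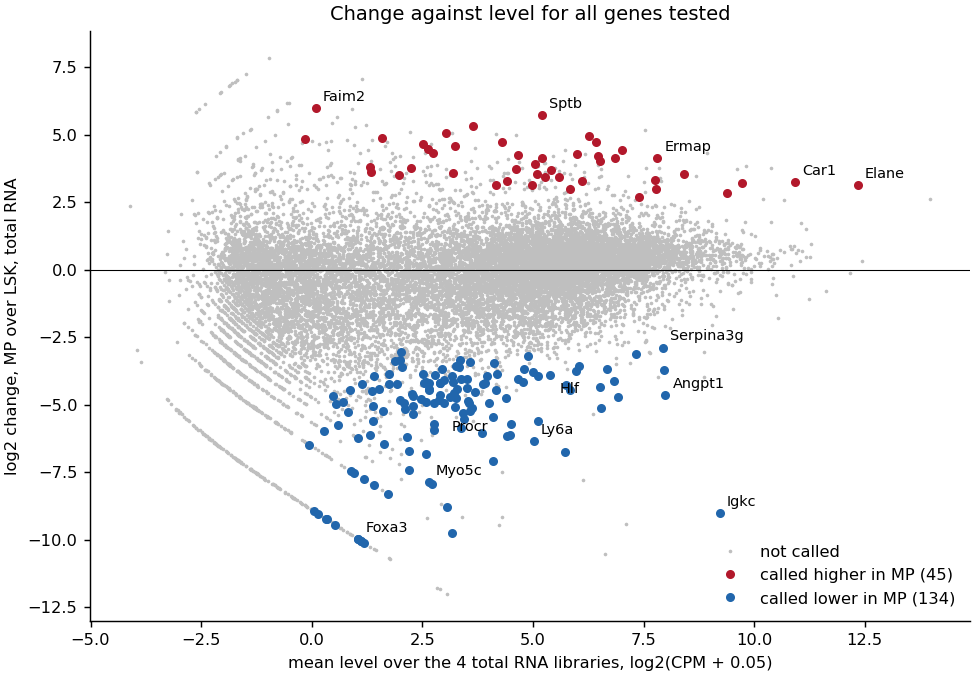
Each point is a gene tested; the horizontal axis is its mean level over the 4 total RNA libraries as log2(CPM + 0.05) and the vertical axis its log2 change in MP over LSK. Red marks the 45 genes called higher in MP and blue the 134 called lower, and the called decreases reach further from 0 than the called increases.

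In all, 179 genes differed between MP and LSK total RNA at an adjusted p under 0.05 in edgeR's quasi-likelihood test with Benjamini-Hochberg adjustment, which is 1.09% of the genes tested. Of these, 45 were higher in MP (0.274%) and 134 were lower (0.816%). The genes that fell were mostly ones with a low level in MP: their median level went from 14.1 CPM (scaled by TMM) in LSK to 0.583 CPM in MP. The genes that rose went the other way, from a median of 4.78 CPM in LSK to 70.2 CPM in MP. The median log2 change was 3.80 among genes called higher and -4.78 among genes called lower. The test called no gene with a log2 change between -2.88 and 2.72, and the median standard error over all genes was 0.78 on the log2 scale. Over all genes tested the median log2 change was -0.01. In 3740 genes (22.8%) both MP libraries lay above both LSK libraries and in 4685 genes (28.5%) both lay below. Such counts in the lists are to be read against these shares. All 179 called genes were without overlap. These calls rest on few libraries: with any of the 4 total RNA libraries or the 3 MP polysomal libraries left out, edgeR called 0 genes, with 1715 to 2711 genes at an unadjusted p under 0.05, while all 179 genes kept their direction. With an LSK polysomal library left out it called 400 or 446.

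**Figure D2:**
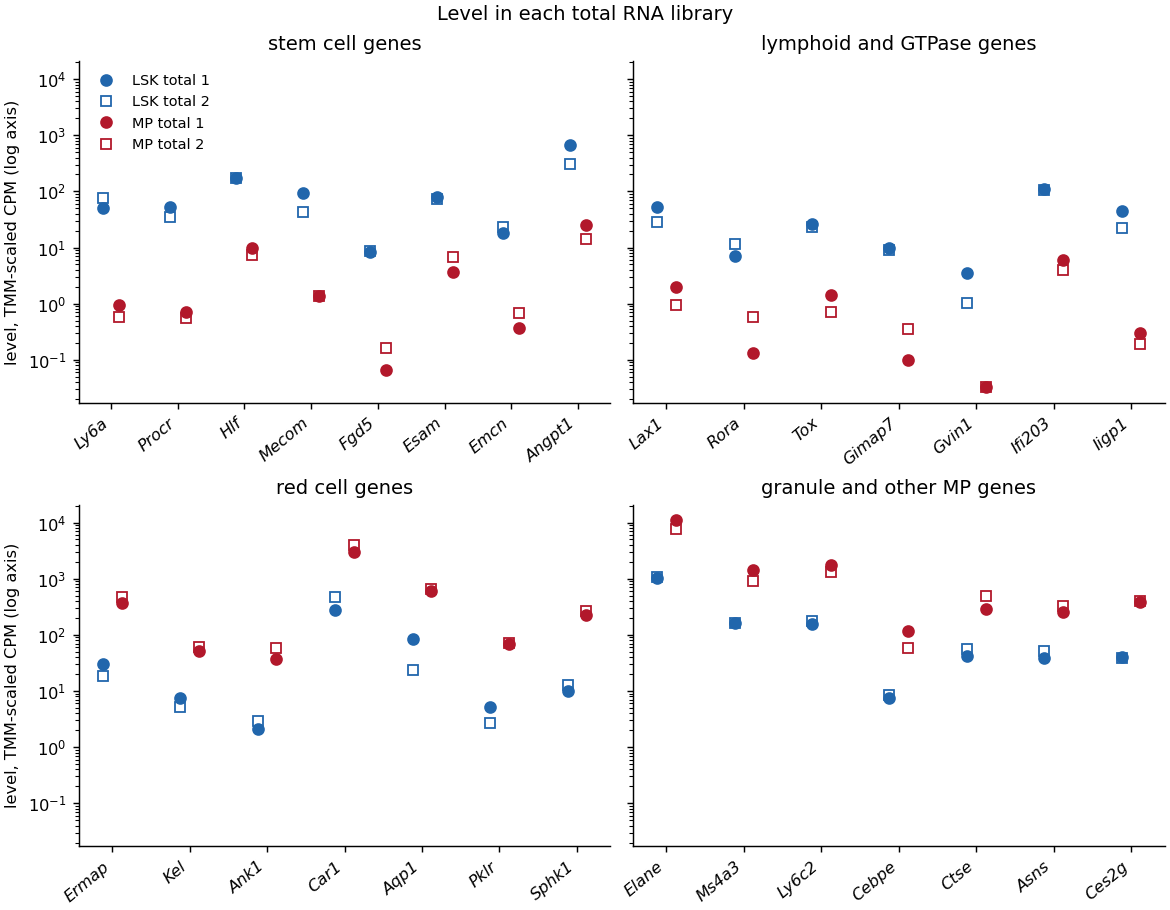
TMM-scaled CPM on a log axis for named genes in each of the 4 total RNA libraries, LSK in blue and MP in red, library 1 filled and library 2 open. The LSK and MP libraries do not overlap for any gene shown.

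Surface genes of stem cells were lower in MP. Of 30 measured genes in this list, 9 fell, none rose by the test, 24 had both MP libraries below both LSK libraries, and the median log2 change was -2.63. Ly6a, which encodes Sca-1, the antigen that conventionally defines the LSK gate, had 50.2 and 77.4 CPM in LSK and 0.966 and 0.584 CPM in MP. That is 81.9-fold lower in MP (log2 change -6.36, SE 1.01, adjusted p = 0.0326), a difference that the usual sort would itself impose. Fgd5, an exchange factor for Cdc42 used as a stem cell marker, stood at 8.49 and 8.85 CPM in LSK and at 0.0666 and 0.162 CPM in MP. Its MP values rest on only 2 and 5 counts. Its libraries were far apart and did not overlap, with a log2 change of -6.19 (SE 1.11, adjusted p = 0.0407). Emcn, a sialomucin of stem cells and endothelium, read 18.3 and 23.5 CPM in LSK and 0.366 and 0.682 CPM in MP, a log2 change of -5.30 (SE 0.86).

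Several of these genes encode junction and homing proteins. Esam, a tight-junction adhesion molecule, had 80.9 and 74.6 CPM in LSK and 3.60 and 6.75 CPM in MP (log2 change -3.91, SE 0.62). Jam2, Jam3 and F11r, the 3 members of the junctional adhesion family in the lists, all fell, with log2 changes of -4.83, -3.85 and -4.17. F11r was the most abundant of them in LSK, at 56.4 and 47.0 CPM against 2.43 and 3.31 CPM in MP. The list of chemokine, homing and adhesion genes as a whole was not shifted in this way, with 6 of 45 members lower, 1 higher and a median of -0.30. Less that of all genes, this median was near 0 without MP library 2.

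Genes listed as transcription factors of stem cells also fell. In this list 5 of 34 measured genes were called lower and none higher, and the median log2 change was -2.33. Hlf, a PAR bZIP factor, was level between the LSK libraries at 171 and 176 CPM and stood at 9.69 and 7.27 CPM in MP, 20.5-fold lower (log2 change -4.35, SE 0.54, adjusted p = 0.0326). Gata3, a zinc finger factor also needed in T cell development, had 17.5 and 19.6 CPM in LSK and 0.766 and 0.941 CPM in MP (log2 change -4.43, SE 0.69). Myct1, a listed gene that is not an established DNA-binding factor, went from 115 and 120 CPM in LSK to 9.86 and 7.66 CPM in MP. Its log2 change was -3.74 (SE 0.62). Ndn, which encodes the growth suppressor necdin, differed more between LSK libraries, at 6.18 and 20.1 CPM, yet both exceeded the MP values of 0.266 and 0.227 CPM by a log2 change of -5.71 (SE 1.10, adjusted p = 0.0475). Kit and Cd34, other surface markers of this compartment, did not pass. Kit had 1409 and 330 CPM in LSK and 671 and 493 CPM in MP, so that its groups overlapped, and Cd34 had a log2 change of -1.47 (SE 0.61, adjusted p = 0.255).

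Among the called genes outside the lists were abundant signalling and protease-inhibitor genes. Angpt1, the ligand of the Tie2 receptor, had 677 and 304 CPM in LSK and 25.3 and 14.2 CPM in MP, 24.8-fold lower (log2 change -4.63, SE 0.85, adjusted p = 0.0435). Calcrl, the receptor chain for calcitonin gene-related peptide and adrenomedullin, had 358 and 111 CPM in LSK against 10.0 and 7.66 CPM in MP (log2 change -4.73, SE 0.87). For both genes LSK library 1 was the higher of its group and the gap to MP was still wide. Ctla2a, a cysteine protease inhibitor resembling a cathepsin propeptide, was even across LSK at 455 and 469 CPM and read 39.4 and 31.8 CPM in MP (log2 change -3.70, SE 0.58). Its close copy Ctla2b fell by a similar amount, with a log2 change of -3.80 (SE 0.61); how reads shared by such close copies were assigned is not given in the sources used here. Serpina3g, a serpin of a multigene cluster to which the same limit applies, had 327 and 542 CPM in LSK and 63.8 and 54.1 CPM in MP (log2 change -2.88, SE 0.52).

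The developmental coactivators Eya1 and Eya2 fell together. Eya1 had 31.2 and 31.9 CPM in LSK and 2.83 and 2.95 CPM in MP, while Eya2 had 78.9 and 50.8 CPM in LSK and 4.90 and 3.60 CPM in MP. Their log2 changes were -3.45 (SE 0.58) and -3.93 (SE 0.61), with adjusted p of 0.0358 and 0.0326. Il18, an inflammatory cytokine, had 14.6 and 20.8 CPM in LSK and 0.999 and 0.487 CPM in MP (log2 change -4.57, SE 0.77). Myo5c, an unconventional myosin, reached 16.8 and 7.90 CPM in LSK against 0.0333 and 0.0649 CPM in MP, a log2 change of -7.86 (SE 1.06). Its MP values are 1 and 2 counts, so the size of this change lies near the floor.

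Some genes were not detected in MP total RNA. There were 72 genes with 0 counts in both MP libraries and at least 10 counts in each LSK library, and 5 genes with the opposite pattern. Foxa3, a forkhead factor, had 160 and 137 counts in the LSK libraries, which is at least 80.9-fold higher than a floor of 3 counts over the 2 MP libraries. Efna1, an ephrin ligand, and Wfdc2, a secreted protein with whey acidic protein domains, were at least 88.8-fold and 91.8-fold higher by the same floor. All 3 were called lower in MP, with adjusted p of 0.0337 for Foxa3, 0.0435 for Efna1 and 0.0326 for Wfdc2.

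Genes of early lymphoid priming were lower in MP. In this list, 5 of 32 measured genes fell, none rose, and the median log2 change was -2.12. Lax1, an adaptor that limits antigen receptor signalling, had 52.1 and 28.1 CPM in LSK and 2.00 and 0.941 CPM in MP, a log2 change of -4.77 (SE 0.76, adjusted p = 0.0326). Mn1, a transcriptional coactivator that is not specific to lymphoid cells, was even at 10.9 and 10.1 CPM in LSK. It was lower at 0.599 and 0.844 CPM in MP, with a log2 change of -3.86 (SE 0.64). Flt3, the receptor of early lymphoid progenitors, did not pass in total RNA: it had 160 and 289 CPM in LSK and 33.1 and 31.4 CPM in MP, a log2 change of -2.80 (SE 0.82, adjusted p = 0.123).

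Lymphoid transcription factors shifted less as a list, with 3 of 31 called lower and a median of -0.65. Tox, an HMG-box factor of T cell development, had 25.8 and 23.5 CPM in LSK and 1.43 and 0.714 CPM in MP (log2 change -4.52, SE 0.73). Rora, a nuclear receptor of innate lymphoid cells, had 7.12 and 11.4 CPM in LSK and 0.133 and 0.584 CPM in MP (log2 change -4.68, SE 0.85). Neither gene had overlapping groups.

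The Gimap genes, a cluster that encodes GTPases of lymphocyte survival, were lower as a group. All 8 measured members had both MP libraries below both LSK libraries, the median log2 change was -3.44, and 2 passed the test. Gimap7 had 9.92 and 8.95 CPM in LSK and 0.0999 and 0.357 CPM in MP (log2 change -5.34, SE 0.77). The other was Gimap6, with a log2 change of -3.67 (SE 0.53).

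Interferon-induced GTPases moved the same way. Of 18 measured IRG and GBP genes, which act against intracellular pathogens, 17 had MP below LSK in all libraries, 3 were called lower and the median was -3.02. Gvin1, a very large interferon-inducible GTPase, had 3.59 and 1.02 CPM in LSK and 0.0333 and 0.0325 CPM in MP, a log2 change of -5.97 (SE 1.15, adjusted p = 0.0475). Its MP values are 1 count in each library, so the size of this change lies near the floor. Gbp8 had 5.89 and 7.11 CPM in LSK, 0 counts in MP library 1 and 0.0325 CPM in MP library 2. Other interferon response genes had a median of -1.42 with 0 of 42 called by edgeR. In 29 of the 42 both MP libraries lay below both LSK libraries, against 28.5% of all genes tested. Rtp4, which had the smallest p of that list, read 37.7 and 32.4 CPM in LSK and 4.30 and 1.56 CPM in MP, a log2 change of -3.58 (SE 0.76, adjusted p = 0.0571). Among genes outside the lists, Ifi203, a PYHIN family gene, fell from 112 and 107 CPM in LSK to 5.96 and 4.06 CPM in MP (log2 change -4.45, SE 0.79). Casp12, an inflammatory caspase, fell by 5.70 on the log2 scale, from 34.9 and 54.6 CPM to 0.866 and 0.844 CPM.

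The class II genes, which present peptides to CD4 T cells, had a median of -1.62 over 11 measured genes, and 0 were called by edgeR. H2-Aa had 116 and 107 CPM in LSK and 25.7 and 29.6 CPM in MP, so the groups did not overlap, and its log2 change was -2.01 (SE 0.51, adjusted p = 0.0906).

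Genes of B cells and plasma cells had a median of -2.33 over 29 measured members, and 2 were called lower. Both are immunoglobulin constant regions, Igkc and Iglc3. Igkc had 136 and 2245 CPM in the LSK libraries and 1.80 and 2.76 CPM in the MP libraries, and LSK library 2 was thus far above the rest. Its log2 change was -9.03 (SE 1.56, adjusted p = 0.0370) and -5.90 without LSK library 2 (adjusted p = 0.0915). Pax5, a factor that defines B cells, was between 0.0292 and 0.0748 CPM in LSK, which lies near the floor. The share that other cells in the sort contribute to these values was not tested, and in bulk RNA fewer cells of a type and less RNA per cell cannot be told apart.

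**Figure D3:**
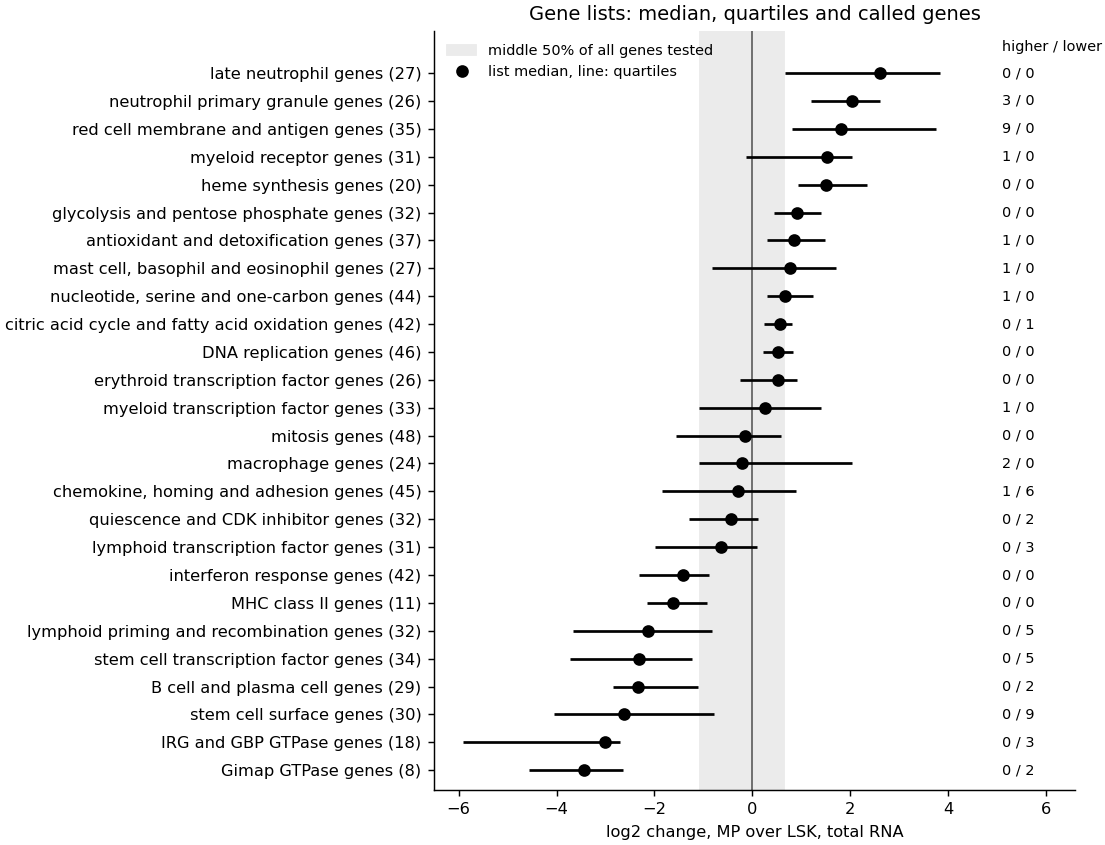
Each row is a gene list with its number of measured genes; the dot is the median log2 change in MP over LSK, the line spans the quartiles, and the grey band spans the quartiles of all genes tested. Numbers at the right count called genes as higher / lower; the Gimap list has the lowest median (-3.44) and the late neutrophil list the highest (2.61), the latter with 0 called genes.

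Genes of the red cell membrane were higher in MP. Of 35 measured genes in this list, 9 were called higher and none lower, 25 had both MP libraries above both LSK libraries, and the median log2 change was 1.81. Ermap, which carries the Scianna blood group antigen, had 29.7 and 18.6 CPM in LSK and 369 and 481 CPM in MP, 17.6-fold higher (log2 change 4.14, SE 0.55, adjusted p = 0.0326). Ank1, the ankyrin that fixes spectrin to the membrane, had 2.10 and 2.92 CPM in LSK and 36.5 and 59.2 CPM in MP (log2 change 4.25, SE 0.67). Kel, the protease that carries the Kell antigen, rose from 7.64 and 5.24 CPM to 52.0 and 61.7 CPM, a log2 change of 3.14 (SE 0.54, adjusted p = 0.0365). Aqp1, the water channel of red cells, had 84.4 and 24 CPM in LSK and 612 and 650 CPM in MP (log2 change 3.54, SE 0.65). Car1, a cytosolic carbonic anhydrase, was the most abundant member called, at 278 and 467 CPM in LSK and 3013 and 4069 CPM in MP. Its log2 change was 3.25 (SE 0.48), and per kilobase of exon its level went from 298 to 2837 CPM. The LSK libraries were not at 0 for any of these genes.

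The called genes outside the lists included the increases below; they were gathered after their values were seen, as examples with no count or test as a group. Pklr, the pyruvate kinase of red cells and liver, had 5.13 and 2.72 CPM in LSK and 68.1 and 72.2 CPM in MP, a log2 change of 4.16 (SE 0.74, adjusted p = 0.0389). Smim1, which carries the Vel antigen, had 3.06 and 3.74 CPM in LSK and 33.5 and 57.1 CPM in MP (log2 change 3.73, SE 0.59). Sphk1, which makes sphingosine 1-phosphate, had 10.1 and 12.7 CPM in LSK and 224 and 266 CPM in MP (log2 change 4.42, SE 0.87). Slc38a5, an amino acid transporter, was nearly equal between LSK libraries at 8.98 and 9.08 CPM and stood at 147 and 188 CPM in MP (log2 change 4.22, SE 0.49). Trim10, a tripartite motif protein of erythroid cells, and Btnl10, a butyrophilin-like gene, rose from under 1 CPM in LSK, with log2 changes of 4.32 (SE 0.70) and 5.09 (SE 0.80).

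The heme synthesis list had a median log2 change of 1.51 over 20 measured members, but edgeR called 0 of them. In 13 both MP libraries lay above both LSK libraries, against 22.8% of all genes tested. Alas1, the housekeeping form of the first enzyme of the path, had 201 and 86.2 CPM in LSK and 954 and 485 CPM in MP, a log2 change of 2.32 (SE 0.55, adjusted p = 0.0748). Blvrb, a listed gene, encodes a biliverdin reductase, which is not an enzyme of heme synthesis. It had 32.0 and 56.4 CPM in LSK and 229 and 430 CPM in MP, and its adjusted p was 0.0959. Erythroid transcription factors had a smaller median, 0.52 over 26 genes, with 0 called. Gata1, the factor that directs red cell genes, was just outside the threshold, at 54.3 and 45.6 CPM in LSK and 230 and 228 CPM in MP, a log2 change of 2.19 (SE 0.44, adjusted p = 0.0503). Globin genes took up 0.00100% and 0.0158% of the counts in LSK and 0.0127% and 0.00984% in MP, so both MP values lay between the LSK values.

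The promoters of 5 genes that rose are shown, picked because each holds a GATA motif, AGATAA or TGATAA on either strand, in the stretch before the first annotated exon. Of the 9 called members of the red cell membrane list 6 had a promoter in the RefSeq table, and 3 of these (Ermap, Kel and Rhd) held the motif in the 250 bases upstream while 3 (Add2, Aqp1 and Sptb) did not. The stretches are 120 bases of RefSeq sequence on GRCm38.p6, written 5′ to 3′ along the gene, with the match in capitals.
Ermap, chr4:119190012-119190131, minus strand, match starting 67 bases before the RefSeq start: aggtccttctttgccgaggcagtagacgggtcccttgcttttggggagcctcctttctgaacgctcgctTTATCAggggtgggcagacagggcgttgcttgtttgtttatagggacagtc
Rhd, chr4:134864416-134864535, plus strand, match 43 bases before: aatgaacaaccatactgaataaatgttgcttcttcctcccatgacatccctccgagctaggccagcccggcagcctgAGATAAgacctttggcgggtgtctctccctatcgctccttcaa
Kel, chr6:41704340-41704459, minus strand, match 56 bases before: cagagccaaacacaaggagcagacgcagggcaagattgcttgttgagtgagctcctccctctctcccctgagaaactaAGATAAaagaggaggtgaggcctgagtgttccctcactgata
Pklr, chr3:89136022-89136141, plus strand, match 35 bases before: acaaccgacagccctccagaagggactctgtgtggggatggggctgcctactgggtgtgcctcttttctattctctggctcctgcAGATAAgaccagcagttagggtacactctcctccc
Btnl10, chr11:58917788-58917907, plus strand, match 14 bases before: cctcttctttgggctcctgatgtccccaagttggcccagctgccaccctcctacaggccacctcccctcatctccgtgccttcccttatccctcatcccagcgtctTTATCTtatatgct
Among all 11223 tested genes with a promoter in the RefSeq table, 9.87% held either motif in the 250 bases upstream. A comparison of the called genes with that share is void, because only 32 of the 45 genes called higher and 86 of the 134 called lower had a promoter in the table; 9 and 10 of them held a match. The matches are letters in a window, and binding there was not measured.

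The list of primary granule genes of neutrophils was higher in MP. Of its 26 measured members, 3 rose and none fell, and the median log2 change was 2.03. In 21 both MP libraries lay above both LSK libraries, against 22.8% of all genes tested. The members that rose were Elane, Ms4a3 and Ly6c2, of which only Elane encodes a granule protease. The granule genes Mpo, Prtn3 and Ctsg did not pass, with log2 changes of 2.62, 2.60 and 2.62 (adjusted p of 0.0519, 0.0540 and 0.0608). Elane, neutrophil elastase, had 1015 and 1089 CPM in LSK and 11082 and 7568 CPM in MP, 8.87-fold higher (log2 change 3.15, SE 0.46, adjusted p = 0.0326). Per kilobase of exon it was the most abundant in MP total RNA among protein-coding genes with a known exon length. Its level was 9477 CPM against 1069 CPM in LSK. Ms4a3, a membrane protein of granulocyte and monocyte progenitors, had 161 and 166 CPM in LSK and 1454 and 911 CPM in MP, a log2 change of 2.86 (SE 0.55, adjusted p = 0.0465). Ly6c2, a surface antigen of monocytes with a close copy in Ly6c1, had 153 and 176 CPM in LSK and 1762 and 1295 CPM in MP (log2 change 3.21, SE 0.54). It was also the only gene called among 31 myeloid receptors, whose median was 1.52. Of 33 measured myeloid transcription factors 1 was called higher and none lower. Both MP libraries lay above both LSK libraries in 7, against 22.8% of all genes, and below in 4, against 28.5%. Their median was 0.26. Less that of all genes, this median was 1.60 without LSK library 2 and -0.36 without MP library 2. The called gene was Cebpe, a factor of granule maturation, with 7.64 and 8.48 CPM in LSK and 118 and 58.9 CPM in MP (log2 change 3.45, SE 0.59).

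The late neutrophil genes, which encode secondary granule proteins and calprotectin, moved with MP library 1. Their median log2 change was 2.61 over 27 genes, but edgeR called 0. Both MP libraries lay above both LSK libraries in 8 of the 27 and below in 2, against 22.8% and 28.5% of all genes tested. The genes with the smallest p, Wfdc21 and Pglyrp1, had 97.8 and 47.4 CPM and 338 and 144 CPM in MP, against 4.70 and 4.71 CPM and 30.3 and 33.8 CPM in LSK. Without MP library 1 the list's median, less that of all genes, was -0.36. The called members of the primary granule list and Cebpe kept their direction without that library, as did all 179 called genes. Leaving it out leaves only 1 MP library of total RNA. The log2 changes of Elane, Ms4a3, Ly6c2 and Cebpe were then 2.86, 2.50, 2.99 and 2.89. Mature neutrophils in MP library 1 as a source of part of these counts was not tested.

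**Figure D4:**
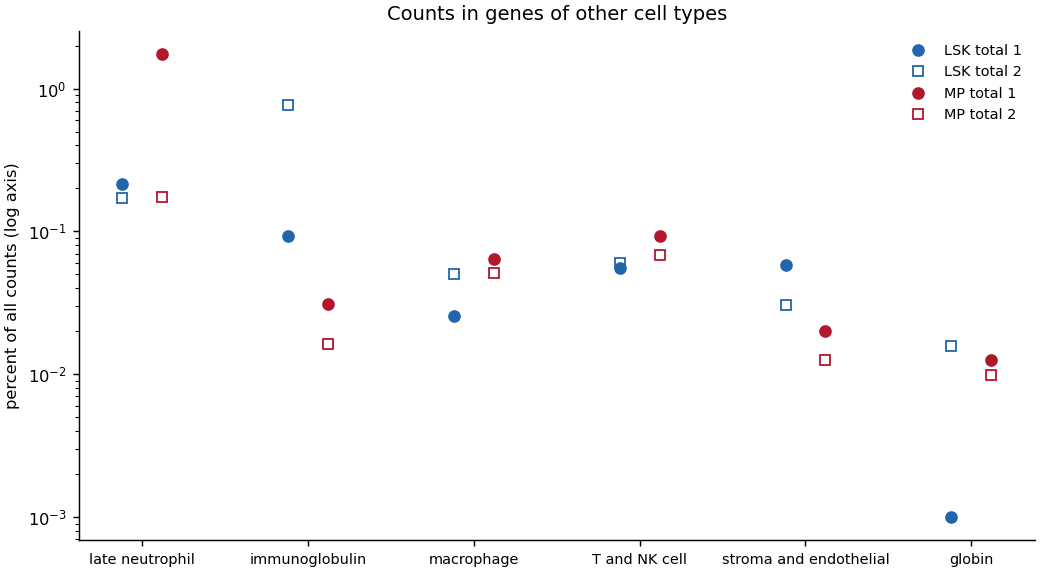
Percent of all counts, on a log axis, in genes of 6 other cell types for each total RNA library, LSK in blue and MP in red, library 1 filled and library 2 open. MP library 1 is highest in late neutrophil genes (1.74%) and LSK library 2 in immunoglobulin genes (0.768%).

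Genes of mast cells, basophils and eosinophils had a median of 0.77 over 27 genes, with 1 called. That gene was Ctse, the aspartic protease cathepsin E, with 42.5 and 56.2 CPM in LSK and 285 and 502 CPM in MP (log2 change 3.0, SE 0.55). Macrophage genes had a median of -0.21 over 24 genes, with 2 called higher, Vcam1 and Slc40a1. Less that of all genes, this median turned positive without LSK library 1 or MP library 2. Both MP libraries lay above both LSK libraries in 8 of the 24 and below in 5, against 22.8% and 28.5% of all genes tested. Vcam1, an adhesion molecule, had 8.69 and 3.64 CPM in LSK and 170 and 72.8 CPM in MP, and Slc40a1, the iron exporter ferroportin, had 14.4 and 11.2 CPM in LSK and 138 and 112 CPM in MP. C1qa, a macrophage complement gene, was low at 1.14 and 0.349 CPM in LSK and 0.766 and 0.260 CPM in MP. The whole list took up 0.0255% and 0.05% of the counts in LSK and 0.0637% and 0.0514% in MP.

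Few metabolic genes were called. Over all genes tested, 22.8% had both MP libraries above both LSK libraries, and several metabolic lists had larger shares. The count was 21 of 44 for nucleotide, serine and one-carbon genes, 23 of 42 for citric acid cycle and fatty acid oxidation genes and 23 of 37 for antioxidant and detoxification genes, with medians of 0.66, 0.56 and 0.86, and each list had 1 called gene. Bdh2, a cytosolic hydroxybutyrate dehydrogenase in the citric acid cycle and fatty acid oxidation list, was lower in MP, at 10.1 and 13.5 CPM in LSK and 0.133 and 0.0649 CPM in MP, a log2 change of -6.84 (SE 0.97, adjusted p = 0.0326). Its MP values rest on only 4 and 2 counts. Asns, asparagine synthetase, had 38.5 and 51.2 CPM in LSK and 261 and 329 CPM in MP, 6.57-fold higher (log2 change 2.72, SE 0.45, adjusted p = 0.0337). Gpx3, a secreted glutathione peroxidase, had 4.00 and 3.86 CPM in LSK and 49.6 and 27.4 CPM in MP (log2 change 3.29, SE 0.61). Ces2g, a carboxylesterase, was even within both groups at 40.3 and 38.4 CPM in LSK and 382 and 404 CPM in MP (log2 change 3.32, SE 0.47). Acss1, the mitochondrial acetyl-CoA synthetase, had 9.89 and 11.4 CPM in LSK and 84.5 and 262 CPM in MP, and its MP libraries differed from each other more than those of Ces2g (log2 change 4.02, SE 0.76). Glycolysis and pentose phosphate genes had a median of 0.92 over 32 genes and 0 called. Pgd, of the pentose phosphate path, had 194 and 60.9 CPM in LSK and 680 and 347 CPM in MP, a log2 change of 2.01 (SE 0.64, adjusted p = 0.151).

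No gene of the DNA replication and mitosis lists was called by edgeR in either direction. DNA replication genes had a median of 0.53 over 46 genes, and mitosis genes a median of -0.16 over 48. Both MP libraries lay above both LSK libraries in 23 replication and 9 mitosis genes, against 22.8% of all genes tested. They lay below in 5 and 16, against 28.5%. Rrm2, a subunit of ribonucleotide reductase, had 168 and 136 CPM in LSK and 606 and 488 CPM in MP, a log2 change of 1.85 (SE 0.60, adjusted p = 0.157). Pola1, a catalytic subunit of DNA polymerase alpha, had the lowest log2 change of the replication list, -2.45 (SE 0.72, adjusted p = 0.124). It read 230 and 85.7 CPM in LSK and 27.2 and 30.6 CPM in MP. Kif20b, a mitotic kinesin, had 94.8 and 58.2 CPM in LSK and 11.8 and 8.99 CPM in MP in total RNA (log2 change -2.88, SE 0.67, adjusted p = 0.0715), and in polysomal RNA its log2 change was -0.46. The list of quiescence and CDK inhibitor genes, which restrain the cycle, had 2 of 32 members called lower, Ndn and Gprasp2, none higher, and a median of -0.43. Gprasp2, which binds sorting signals of G protein-coupled receptors, had 16.5 and 5.34 CPM in LSK and 0.633 and 0.552 CPM in MP (log2 change -4.19, SE 0.76).

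Polysomal libraries of the same populations gave a further reading of the same contrast, in lysate that the labels describe as split after the total RNA was set aside. There 86 genes were higher in MP (0.524%) and 465 were lower (2.83%). All 45 genes higher in total RNA had a positive polysomal log2 change and all 134 lower genes a negative one, and 36 and 118 of them passed the polysomal test. These 2 readings share populations and possibly cells and are not independent. Late neutrophil genes took up 2.28% of the counts in MP polysomal 1, against 0.161% and 0.119% in MP polysomal 2 and 3. Immunoglobulin genes took up 0.503% in LSK polysomal 2 and 0.108% in LSK polysomal 1. The same library numbers thus stood apart as in total RNA. A test of the difference between the changes in total and polysomal RNA called 0 genes by edgeR, with 869 of all genes and 17 of the 179 at an unadjusted p under 0.05. Angpt1 and Calcrl were among the genes with less change on polysomes, with polysomal log2 changes of -1.93 and -1.72 against -4.63 and -4.73 in total RNA. Malat1, a nuclear noncoding RNA, differed in sign without passing either test: its log2 change was -3.04 in total RNA (SE 0.97, adjusted p = 0.153), from 679 and 978 CPM in LSK and 88.6 and 112 CPM in MP, and 1.07 in polysomal RNA.

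**Figure D5:**
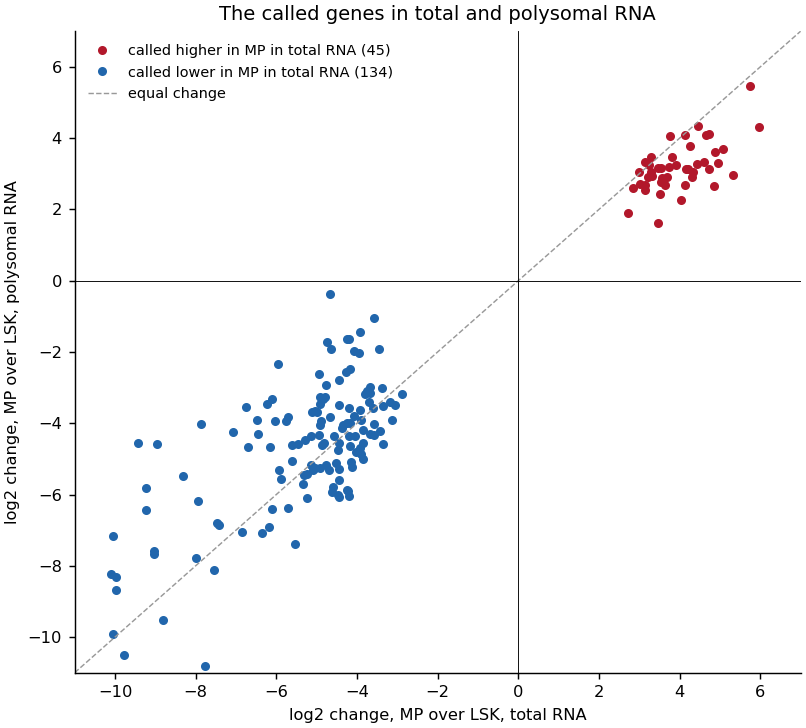
Log2 change in MP over LSK in total RNA (horizontal) against polysomal RNA (vertical) for the 179 called genes, red for higher and blue for lower in MP; the dashed line marks equal change. All 45 red points lie above 0 on both axes and all 134 blue points below 0 on both.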

How the data were processed

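RNA was sequenced from 9 libraries of LSK and MP cells, and the 4 total RNA libraries are compared here. Per the submitters' processing notes, the tools were bcl2fastq, STAR, featureCounts and DESeq2, on mm10 / GRCm38; no source used here gives their versions, the annotation or the strand setting. The deposited count table holds raw counts per gene; the authors' second table holds normalized values on a log2-like scale and served only as an alternative. Counts were filtered with filterByExpr (minimum count 10, minimum total 15), scaled by TMM and fitted in edgeR 4.0.16 (R 4.3.3) with 1 mean per group over all 9 libraries (27342343 to 34807735 counts), contrast MP total minus LSK total, two-sided, Benjamini-Hochberg adjusted over 16426 genes, threshold 0.05. The procedure was tested on simulated data. Alternatives used limma 3.58.1 and DESeq2 1.42.0. Values are TMM-scaled CPM. Gene structure came from GENCODE M21, promoters from RefSeq. Shares of counts and gene list medians carry no test. The 40 gene lists, the markers and the rule for named genes (markers; largest and most abundant called genes; called list members, or those with the smallest p; called genes outside the lists) were chosen with earlier results of these data known. Acss1, C1qa, Casp12, Ctla2b, Ctsg, Efna1, Eya1, Eya2, Foxa3, Ifi203, Il18, Ly6c1, Mpo, Pax5, Pklr, Prtn3 and Smim1 fall outside that rule and were chosen after their values were seen. Some genes that the tests called are not reported here.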

Additional observations from a re-analysis of the deposited data

How the results depend on the processing

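The number of called genes depended on the samples and the tool. It was 182 with DESeq2 scaling, 261 with a minimum count of 50, 328 with library totals alone (43 higher, 285 lower, so that 13.1% were higher against 25.1% in the main setting), 1206 with no filter, 542 with limma voom, 592 with voom and a correlation within population and number, 850 with the authors' normalized table in limma (16.2% higher) and 1470 with the DESeq2 Wald test. It was 0 with only the 4 total RNA libraries (3128 genes at an unadjusted p under 0.05), 0 without both MP libraries numbered 1 (1441 genes), 211 without both LSK libraries numbered 2 (10.9% higher), and 0 to 446 with each library left out in turn. Where leaving out a library leaves an arm with 1 sample, that sample is assumed to vary like the other groups. In every one of these settings all 179 genes kept their sign. Library totals moved the median of all genes by -0.35, so list medians are given here less that of all genes.

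With the library number as a replicate block, 570 genes were called over all 9 libraries and 3301 over the 4 total RNA libraries (35.9% higher). Across groups, the deviations of same-numbered libraries were positively correlated in 9 of 12 pairs, with r from 0.253 to 0.620 (0.592 between LSK and MP total RNA). They were negative in the other 3, all with MP polysomal 2 (r from -0.375 to -0.0575). Deviations were taken from the group mean, so in a group of 2 libraries they mirror each other. Between 2 such groups both same-numbered pairs therefore give an identical r. The 12 pairs thus hold exact repeats and are not independent of each other. Whether a number marks shared animals or lysate is not given, so the block was not used in the main fit.

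List medians that moved by more than their spread were, with the authors' table, stem cell surface -1.75, lymphoid priming -1.73, lymphoid transcription factor -0.38, Gimap -3.05, mast cell 0.43 and B cell -1.08. A minimum count of 50 gave lymphoid priming -2.39, B cell -2.53 and macrophage -0.81. Voom with a correlation gave class II -1.78, the 4 libraries alone gave lymphoid transcription factor -0.91, and the replicate block in them gave macrophage 0.28. Without both LSK libraries numbered 2 the medians were stem cell surface -2.24, stem cell transcription factor -1.53, heme 2.08, mast cell 0.27, B cell -1.95, IRG and GBP -3.85, class II -1.46, DNA replication 0.25, myeloid transcription factor 1.60 and quiescence -0.067. Without both MP libraries numbered 1 they were Gimap -3.12, heme 1.96, late neutrophil -0.34, B cell -2.49 and class II -1.78.

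With each library left out in turn, the medians ran from -2.65 to -2.24 (stem cell surface), -2.60 to -1.43 (stem cell transcription factor), -2.31 to -1.89 (lymphoid priming), -0.98 to -0.46 (lymphoid transcription factor), -3.71 to -3.09 (Gimap), 1.30 to 2.09 (heme), 1.78 to 2.70 (primary granule), 1.00 to 2.17 (myeloid receptor), -0.36 to 3.65 (late neutrophil), 0.27 to 1.47 (mast cell), -2.47 to -1.93 (B cell), -0.31 to 0.54 (macrophage), -0.42 to 0.032 (homing), -3.84 to -2.65 (IRG and GBP), -1.78 to -1.29 (class II), 0.25 to 0.81 (DNA replication), -0.36 to 1.60 (myeloid transcription factor), -0.53 to -0.094 (quiescence), 0.43 to 1.10 (nucleotide and serine) and 0.37 to 0.88 (citric acid cycle). Among genes, the log2 change of Kit ran from -1.28 to 0.83, of C1qa from -1.49 to 0.56 and of Pax5 from -3.81 to 0.86, and Pax5 was 0.67 without both LSK libraries numbered 2 and 0.85 without both MP libraries numbered 1. The cause was not tested for any of these.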
